A study of Homo sapiens with 6 samples.

Results

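The 9 genes described here encode the core machinery that makes microRNAs and loads them into the silencing complex: DROSHA, DGCR8, XPO5, DICER1, TARBP2, AGO1, AGO2, AGO3 and AGO4. They were chosen by name for their place in the pathway, not by their values, though with earlier results of these data known. Each was found by Ensembl identifier among the 28181 genes listed in each of the 6 libraries. All 9 were also among the 23040 genes tested here, those whose normalized count averaged 1 or more. RNA was sequenced from UE7T-9 cells, which derive from marrow mesenchymal stem cells of a person and were immortalized by adding telomerase (hTERT) and the papillomavirus E7 gene. UE7T-9 SHC4 (n = 3 libraries) overexpressed SHC4, an adaptor protein of receptor tyrosine kinases, after lentiviral infection. According to the methods, the lentiviral vector carried a CMV promoter and puromycin resistance. UE7T-9 Cont (n = 3) are titled nontarget with a wild-type genotype in the sample labels and are described in the methods as cells infected with a GFP vector. Both groups share the hTERT and E7 immortalization and growth in the same medium, and the sample titles number the libraries of each group as biological replicates. Neither source says if these came from separate infections or cultures, and the p-values below measure the spread between these libraries. The groups are shortened below to the Cont libraries and the SHC4 libraries.

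A microRNA gene is transcribed as a long primary transcript, from which the nuclear RNase III enzyme DROSHA and its RNA-binding partner DGCR8 cut a hairpin. XPO5 (exportin 5) carries the hairpin out of the nucleus with the GTPase RAN. DICER1, a second RNase III enzyme, works with the double-stranded RNA-binding protein TARBP2 to cut off the loop, and an Argonaute protein keeps a single strand as the mature microRNA. AGO2 is the Argonaute best known for cutting a fully matched target, and all Argonautes can recruit TNRC6 proteins that silence partly matched messages. In bone marrow stroma, loss of DICER1 in mesenchymal progenitors of the mouse is known for causing myelodysplasia, and the study names DICER1 as a mutation that such cell lines could be used to model. The comparison of SHC4 with Cont libraries shows whether the transcripts of this machinery differed once SHC4 was overexpressed. The libraries report messenger RNA per gene and not mature microRNAs or proteins, and in bulk RNA fewer expressing cells cannot be told apart from less RNA per cell.

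The values are normalized counts, meaning gene counts divided by 1 size factor per library. The libraries held between 18144993 and 27721397 recovered reads, and the 9 genes drew between 274 and 2494 reads each in any library, far above a floor of 3 reads (2.50 to 3.53 normalized counts). SHC4 was between 56.5 and 157 in the Cont libraries and between 119166 and 155006 in the SHC4 libraries, with a log2 fold change of 10.32 (limma, adjusted p = 2.1e-06). Cont replicate 1 stood apart from its group. Its log2 values correlated with SHC4 replicate 1 at r = 0.975 across genes, against 0.967 and 0.962 with the other two controls. SHC4 replicate 1 correlated with SHC4 replicates 2 and 3 at 0.978 and 0.975. By mean chi-square per gene (lower is more alike), however, it was nearer to Cont replicate 1 (30.5) than to these (74.0 and 62.4). Without Cont replicate 1, limma called 1311 of 23087 genes in place of 15 of 23040. Results are therefore given with and without it where it matters. Since it was singled out for these values, a pass without it is no separate support for a gene. The mesenchymal stem cell markers NT5E, THY1 and ENG summed to between 27753 and 31176 normalized counts per library. The 6 blood cell markers found (PTPRC, CD34, CD14, ITGAM, CD79A and HLA-DRA) summed to between 228 and 418, and PTPRC, which defines blood cells, was at most 6.82. THY1 had normalized counts of 7742, 2939.6 and 2286 across the Cont libraries and 7845, 9569.9 and 7512 across the SHC4 libraries, a log2 fold change of 1.15 (limma, adjusted p = 0.234). HLA-DRA had 262, 89.5 and 72.8 against 151, 189 and 160.7. In both, Cont replicate 1 was above the other two controls, both were called by limma without it, and their part in the results was not tested. The 4 endothelial and epithelial markers summed to between 25.3 and 53.6, with CDH5 at most 1.18 and EPCAM at most 4.92.

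Stretches of sequence before the starts of 5 of these genes are shown for the reasons given next, and no result below rests on the sequences. DROSHA and XPO5 each start back to back with another gene. TARBP2 and AGO4 were the members whose groups did not overlap, and DICER1 is the gene of the pathway tied to marrow stroma. Sequences are from RefSeq on GRCh38.p14, which has promoter windows for 8 of the 9 genes (all but AGO2). They run 5′ to 3′ on the gene's own strand, and capitals mark matches to CCAAT (or ATTGG) and GGGCGG (or CCGCCC), the letters of the CCAAT box and the GC box.
DROSHA to C5orf22, chr5:31532197-31532265, minus strand: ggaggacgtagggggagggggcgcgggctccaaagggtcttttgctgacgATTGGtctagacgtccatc
XPO5 to POLH, chr6:43576076-43576149, minus strand: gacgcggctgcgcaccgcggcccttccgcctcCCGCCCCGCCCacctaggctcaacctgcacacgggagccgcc
DICER1 upstream, chr14:95158011-95158260, minus strand: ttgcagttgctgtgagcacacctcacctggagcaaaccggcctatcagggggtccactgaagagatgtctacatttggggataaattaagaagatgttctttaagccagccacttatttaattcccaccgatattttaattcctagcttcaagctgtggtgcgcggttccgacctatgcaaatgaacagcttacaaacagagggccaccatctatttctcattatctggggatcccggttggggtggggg
TARBP2 upstream, chr12:53500673-53500920, plus strand: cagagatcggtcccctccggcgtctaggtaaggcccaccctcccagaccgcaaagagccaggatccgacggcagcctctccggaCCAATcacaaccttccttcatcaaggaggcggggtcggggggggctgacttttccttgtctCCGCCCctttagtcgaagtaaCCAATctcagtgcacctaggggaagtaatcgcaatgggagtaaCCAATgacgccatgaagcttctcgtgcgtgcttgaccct
AGO4 upstream, chr1:35807766-35808015, plus strand: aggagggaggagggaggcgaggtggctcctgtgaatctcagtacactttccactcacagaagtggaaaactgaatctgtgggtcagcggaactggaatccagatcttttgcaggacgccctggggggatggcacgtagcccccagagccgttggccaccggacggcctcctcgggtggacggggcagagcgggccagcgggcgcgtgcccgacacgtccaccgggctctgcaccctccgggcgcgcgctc

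The stretch before TARBP2 held 3 CCAAT letters and 1 GC box in 248 bases. Among the 35116 promoter windows of RefSeq cut to the same length, 31.9% held a CCAAT box and 42.6% a GC box on either strand. The 74 bases between XPO5 and POLH held 2 GC box matches that overlap by a base, and 26.6% of windows of that length held at least 1. The 69 bases between DROSHA and C5orf22 held 1 CCAAT box, and 12.0% of windows of that length held at least 1. Neither was found in the 250 bases before the outermost annotated start of DICER1 or in those before the RefSeq start of AGO4. That AGO4 start lies upstream of the AGO4 start in the gene annotation used here, and the bases between them were not searched. RefSeq has 5 promoter windows for DICER1 and 3 for TARBP2, and only the stretch printed above was searched for each. No stretch held TATAAA (or TTTATA), the letters of a TATA box, or TTCNNNGAA, the letters bound by STAT factors, which were found in 10.7% and 6.57% of windows of 250 bases. The stretch before DICER1 had a GC content of 48.0%, against 58.5% before TARBP2, 66.4% before AGO4, 62.3% between DROSHA and C5orf22 and 78.4% between XPO5 and POLH. These are matches of letters only.

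None of the 9 genes passed the test between the SHC4 and Cont libraries (limma with a mean-variance trend, Benjamini-Hochberg adjusted p below 0.05 over all genes tested), where 0.0651% of all genes tested were called. At an unadjusted p below 0.05 there were 3 of the 9, TARBP2 and AGO4 with higher and XPO5 with lower means in the SHC4 libraries, where 14.4% of all genes tested passed. The groups did not overlap for 2 of the 9, TARBP2 and AGO4, both higher in the SHC4 libraries, and 19.3% of all genes tested did not overlap (9.13% higher and 10.2% lower). The median log2 fold change of the 9 genes was 0.10, with 6 above and 3 below 0, beside a median of -0.00 over all genes tested, of which 49.7% were above 0. The median of the 9 was -0.00018, with 4 above and 5 below 0, under scaling to library size, and it ran from 0.028 without Cont replicate 3 to 0.19 without Cont replicate 1. Neither edgeR nor DESeq2 on the recovered reads called any of the 9 genes, while 0.0694% of the genes tested with edgeR and 4.14% of those with DESeq2 were called. At an unadjusted p below 0.05, edgeR passed 17.6% and DESeq2 10.4% of genes. Without Cont replicate 1, where 5.68% of all genes were called, none of the 9 was called either.

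**Figure D1:**
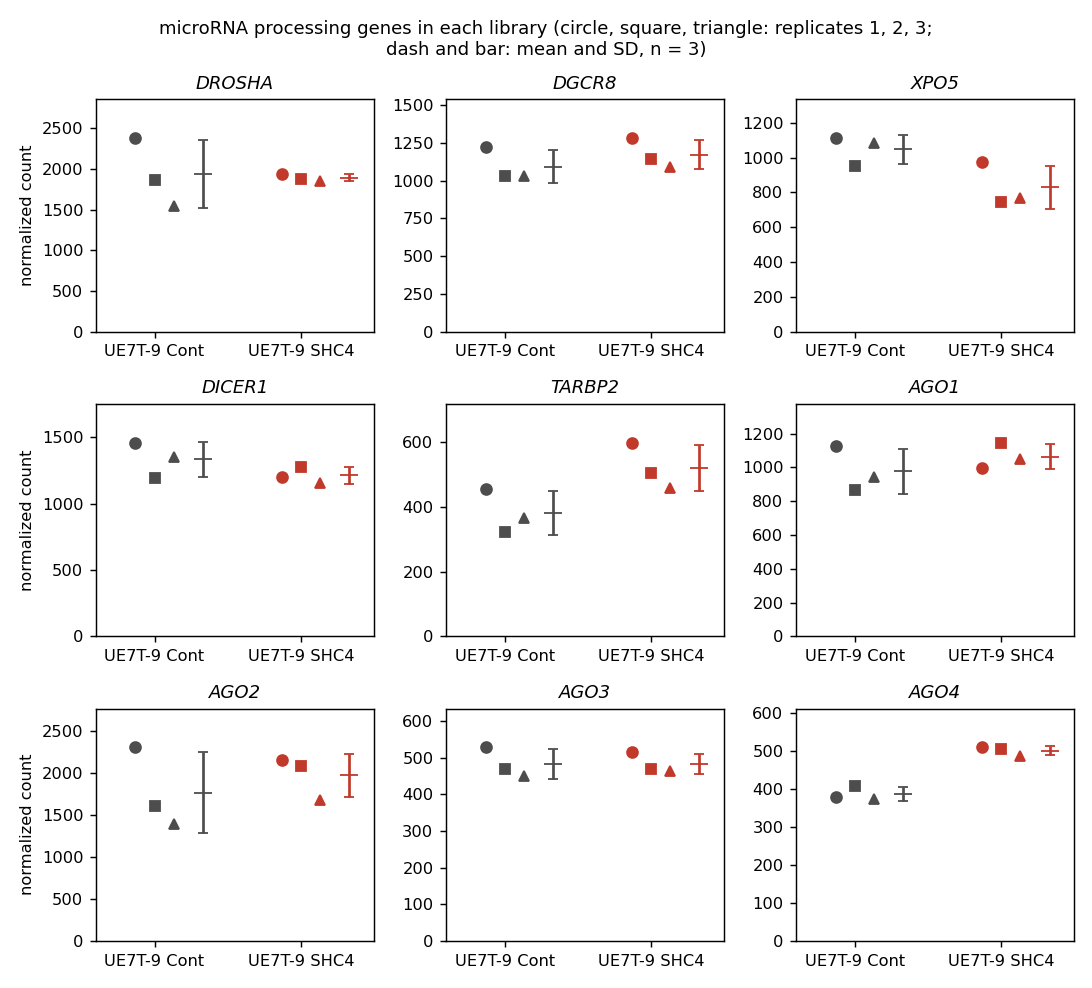
Normalized count (vertical axes, from 0) of each of the 9 genes in the 3 Cont and 3 SHC4 libraries, with the mean and SD of each group beside the points. Only TARBP2 and AGO4 show no overlap between the groups, and the circle of Cont replicate 1 is the highest control in all panels except AGO4.

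DROSHA (ENSG00000113360; chr5:31400497-31532196, minus strand), the nuclear enzyme, had normalized counts of 2375, 1867 and 1547 in Cont replicates 1, 2 and 3. Across the SHC4 libraries it had 1934, 1875 and 1854. The SHC4 libraries lay close together and inside the range of the controls, which spread 1.53-fold. The means were 1930 ± 417 and 1888 ± 41.7 (SD, n = 3 each), and the log2 fold change was -0.01 (limma, standard error 0.16, adjusted p = 0.985). Without Cont replicate 1, the highest library, the sign turned, with a log2 fold change of 0.15 (adjusted p = 0.546). The partner DGCR8 (ENSG00000128191; chr22:20080232-20111877, plus strand), which holds the hairpin for DROSHA, had 1220.4, 1029 and 1028 normalized counts across the Cont libraries. It had 1280.5, 1145 and 1091 across the SHC4 libraries. Replicate 1 was the highest library in both groups and the groups overlapped, with a log2 fold change of 0.10 (limma, standard error 0.13, adjusted p = 0.761).

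C5orf22, which begins 69 bases from DROSHA on the other strand, is named here after its values were seen. Its normalized counts were 982, 1099.6 and 1053 across the Cont libraries and 764, 713 and 808 across the SHC4 libraries. All SHC4 libraries lay below all controls, but the log2 fold change of -0.46 did not pass in limma (adjusted p = 0.180), while DESeq2 called it (adjusted p = 0.046). Across the stretch of 69 bases printed above, the pair thus had log2 fold changes of -0.01 and -0.46, and their difference was not tested. At its 3′ end DGCR8 overlaps TRMT2A, by a few bases, and the antisense gene AC006547.2 on the other strand. Of the 25-base stretches of DGCR8, 8.31% also occur in other genes, with 485 of these 612 in AC006547.2. The library kit does not mark strand, so reads in these overlaps cannot be told apart. TRMT2A had a log2 fold change of -0.04 (limma, adjusted p = 0.920).

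XPO5 (ENSG00000124571; chr6:43522330-43576075, minus strand), the exporter of the hairpin, had normalized counts of 1111, 954 and 1081 across the Cont libraries. It had 973, 743 and 771 across the SHC4 libraries. SHC4 replicates 2 and 3 were below all controls, whereas replicate 1 was above Cont replicate 2, so the groups overlapped. The means were 1049 ± 83.7 and 829 ± 125 (SD, n = 3 each), and the log2 fold change was -0.35 (limma, standard error 0.14, 95% interval -0.67 to -0.03). The unadjusted p was 0.037 in limma's fit and the adjusted p was 0.313, with values from 0.182 to 0.690 over the alternatives. XPO5 was the member with the lowest estimate. Its exons overlap POLR1C on the other strand, and 6.36% of its stretches of 25 bases also occur in other genes. POLR1C had a log2 fold change of 0.09 (limma, adjusted p = 0.833).

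POLH, which encodes a DNA polymerase of the damage response, begins 74 bases from XPO5 on the other strand and is also named after its values were seen. It had normalized counts of 1911, 2183 and 2328 across the Cont libraries and 1584, 1854 and 1783 across the SHC4 libraries. All SHC4 libraries lay below the controls, with a log2 fold change of -0.30 (limma, adjusted p = 0.332). Both genes beside the 74 bases shown above thus had estimates below 0, and neither passed.

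DICER1 (ENSG00000100697; chr14:95086228-95158010, minus strand), the cytoplasmic enzyme, had normalized counts of 1460.2, 1196 and 1351 across the Cont libraries. It had 1204, 1281 and 1159 across the SHC4 libraries. The lowest control lay below 2 of the 3 SHC4 libraries, so the groups overlapped. The means were 1336 ± 133 and 1215 ± 61.9 (SD, n = 3 each), and the log2 fold change was -0.13 (limma, standard error 0.12, adjusted p = 0.662). The 95% interval ran from -0.41 to 0.14, which is a fold of 0.752 to 1.10, so a change of DICER1 within these bounds could not be told from none with 3 libraries per group. All 15 alternatives kept the estimate below 0, between -0.24 and -0.07. Its antisense gene DICER1-AS1, whose annotated span covers the stretch printed above, held between 8.24 and 18.7 normalized counts. SBDS, the other gene known for marrow failure when lost in stroma, had a log2 fold change of -0.03 (limma, adjusted p = 0.940).

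TARBP2 (ENSG00000139546; chr12:53500921-53506431, plus strand), the RNA-binding partner of DICER1, had normalized counts of 455, 323 and 366 across the Cont libraries. It had 598, 504 and 456 across the SHC4 libraries. The groups did not overlap, but the lowest SHC4 library (456.5) was only just above Cont replicate 1 (455.2). The means were 381 ± 67.6 and 519 ± 71.9 (SD, n = 3 each), 36.2% higher in the SHC4 libraries, and all 3 SHC4 libraries were higher. The log2 fold change was 0.45 (limma, standard error 0.17, 95% interval 0.07 to 0.84), the largest estimate among the 9 genes, with an unadjusted p of 0.027 in limma's fit and an adjusted p of 0.284. Without Cont replicate 1 it was 0.59 (limma, adjusted p = 0.067), the smallest adjusted p of any member in any alternative, and the highest was 0.620. The antisense transcript AC023509.4, which lies over the start of TARBP2 and the stretch with the 3 CCAAT letters, held between 7.87 and 19.1 normalized counts. Only 0.023% of the 25-base stretches of TARBP2 occur in other genes.

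The ratio of DICER1 to TARBP2 was computed after the values of both genes had been seen, and is given without a test. Per kilobase of exon it was 1.07, 1.23 and 1.23 across the Cont libraries and 0.670, 0.846 and 0.844 across the SHC4 libraries, with no overlap. The ratio of DROSHA to DGCR8 was 1.83, 1.71 and 1.42 across the Cont libraries and 1.42, 1.54 and 1.60 across the SHC4 libraries, with overlap.

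**Figure D2:**
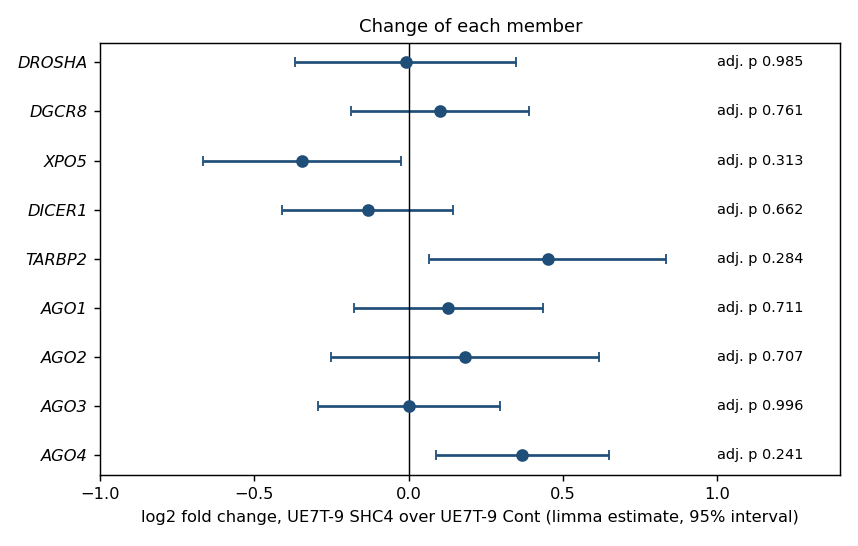
Log2 fold change of SHC4 over Cont libraries (horizontal axis) for each of the 9 genes, as limma estimates with 95% intervals (3 libraries per group) and the adjusted p printed at the right. The intervals of XPO5, TARBP2 and AGO4 leave out 0, and no adjusted p is below 0.241.

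The Argonaute genes bind the mature strand. AGO1, AGO3 and AGO4 lie in a row on the plus strand of chromosome 1 within 264 kb, while AGO2 lies on chromosome 8. AGO4 (ENSG00000134698; chr1:35808172-35857890) had normalized counts of 380.2, 409.7 and 375 across the Cont libraries. It had 511, 505 and 488 across the SHC4 libraries. The groups did not overlap, each with a narrow spread, and AGO4 was the only member for which Cont replicate 1 was not the highest control. The means were 388 ± 18.8 and 501 ± 11.9 (SD, n = 3 each), 29.1% higher in the SHC4 libraries, and all 3 SHC4 libraries were higher. The log2 fold change was 0.37 (limma, standard error 0.12, 95% interval 0.09 to 0.65), with an unadjusted p of 0.015 in limma's fit and an adjusted p of 0.241. The adjusted p was 0.172 with DESeq2 and 0.185 with edgeR, and without Cont replicate 1 it was 0.157 in limma, so AGO4 did not pass in any fit.

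AGO1 (ENSG00000092847; chr1:35869808-35930528), the next gene of the row, had normalized counts of 1126, 866 and 941 across the Cont libraries. It had 996, 1146 and 1050.4 across the SHC4 libraries. The groups overlapped through the first control, with a log2 fold change of 0.13 (limma, standard error 0.14, adjusted p = 0.711). It ran from 0.045 without Cont replicate 2 to 0.23 without Cont replicate 1 (limma, adjusted p = 0.322). AGO3 (ENSG00000126070; chr1:35930718-36072500), which starts 189 bases after the end of AGO1, had 528, 469 and 451 across the Cont libraries. It had 515, 469 and 463 across the SHC4 libraries. The pair of group means, 482.5 and 482.6, were nearly equal, with a log2 fold change of 0.00 (limma, standard error 0.13, adjusted p = 0.996) and a 95% interval of -0.29 to 0.30. Of the 25-base stretches of AGO3, 10.2% occur in other genes, and 50 occur in another Argonaute gene. AGO4 shares 40 such stretches with other Argonaute genes and AGO1 shares 14, a small part of each gene.

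AGO2 (ENSG00000123908; chr8:140520156-140635619, minus strand), which can cut its target, had normalized counts of 2301, 1599.9 and 1388 across the Cont libraries. It had 2151, 2076 and 1678 across the SHC4 libraries. Cont replicate 1 was the highest of all 6 libraries and the other two controls were the lowest. The log2 fold change was 0.18 (limma, standard error 0.19, adjusted p = 0.707) with all libraries and 0.39 (adjusted p = 0.154) without Cont replicate 1, but 0.028 without Cont replicate 3. AGO2 had the widest standard error of the 9 genes.

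The share of each Argonaute gene in their summed level per kilobase of exon was a description of the mixture. AGO2 held 42.7% ± 4.80 of it across the Cont libraries and 42.4% ± 2.95 across the SHC4 libraries (SD, n = 3 each). AGO1 held 27.4% ± 2.04 and 26.2% ± 2.22, and AGO4 held 21.0% ± 3.32 and 23.6% ± 1.06. AGO3 held 8.90% ± 0.594 and 7.80% ± 0.467. For AGO4 the shares across the Cont libraries were 17.2%, 23.3% and 22.6% and those across the SHC4 libraries were 23.3%, 22.8% and 24.8%. The groups overlapped, and the first control had the lowest share of AGO4 and the highest of AGO2. For AGO3 the shares were 8.22%, 9.15% and 9.33% against 8.06%, 7.27% and 8.09%, without overlap but with Cont replicate 1 close to the SHC4 libraries. The level of AGO3 itself averaged 22.8 per kilobase in both groups, so its mean shares differ through the sum they are divided by. The summed Argonaute level per kilobase was 304, 242 and 228 across the Cont libraries and 302, 305 and 271 across the SHC4 libraries, with overlap.

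**Figure D3:**
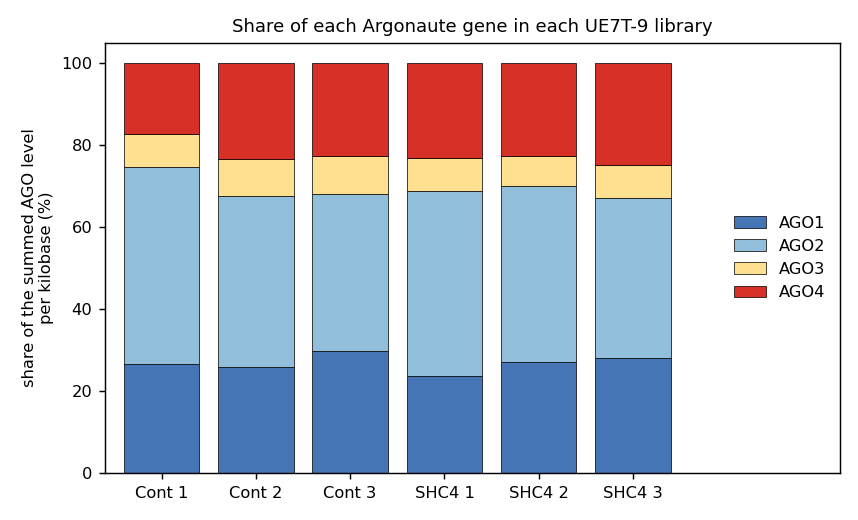
Share of AGO1, AGO2, AGO3 and AGO4 in the summed Argonaute level per kilobase of exon (vertical axis, percent) in each of the 6 libraries. AGO2 takes 38.4% to 47.9% and AGO3 7.27% to 9.33% in every library.

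Levels can be compared between genes only per length, here the normalized count per kilobase of all annotated exons averaged over the 6 libraries. DROSHA was highest at 245 ± 34.2 (SD), followed by DGCR8 at 155 ± 14.1, and in all 6 libraries DROSHA was above DGCR8, by 1.58-fold on average. AGO2 (118 ± 22.8), XPO5 (110 ± 18.0), TARBP2 (110 ± 24.0) and DICER1 (104 ± 9.26) came next, and neighbours within these 4 differed by less than the SD of their log2 ratio. AGO1 (73.5 ± 7.78) was below DICER1 in all 6 libraries, AGO4 (61.2 ± 8.74) was below AGO1 in all 6, and AGO3 was lowest at 22.8 ± 1.48, below AGO4 by 2.66-fold on average. TARBP2 has the shortest exon length of the 9 genes (4090 bases in all exons, 1867 in its longest transcript). With the longest transcript as the length, TARBP2 stood at 241 ± 52.5, level with DGCR8 on average, while DROSHA (360 ± 50.2) stayed highest and AGO3 (24.5 ± 1.59) lowest. XPO5 (175 ± 28.6) then stood above AGO2 (128 ± 24.7) in 5 of 6 libraries, by a log2 ratio of 0.46 ± 0.39 (SD). Which transcripts were present was not measured here, so the places of TARBP2, XPO5 and AGO2 in the order depend on the length used. The lengths were 21157 and 19687 bases for AGO3, 7267 and 7116 for AGO4 and 13886 and 13708 for AGO1. The second length could thus hardly move these 3 genes. Before division by length, AGO3 averaged 482.5 and 482.6 in the Cont and SHC4 libraries and AGO4 388 and 501. The lowest place of AGO3 therefore rests on its long annotated length.

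**Figure D4:**
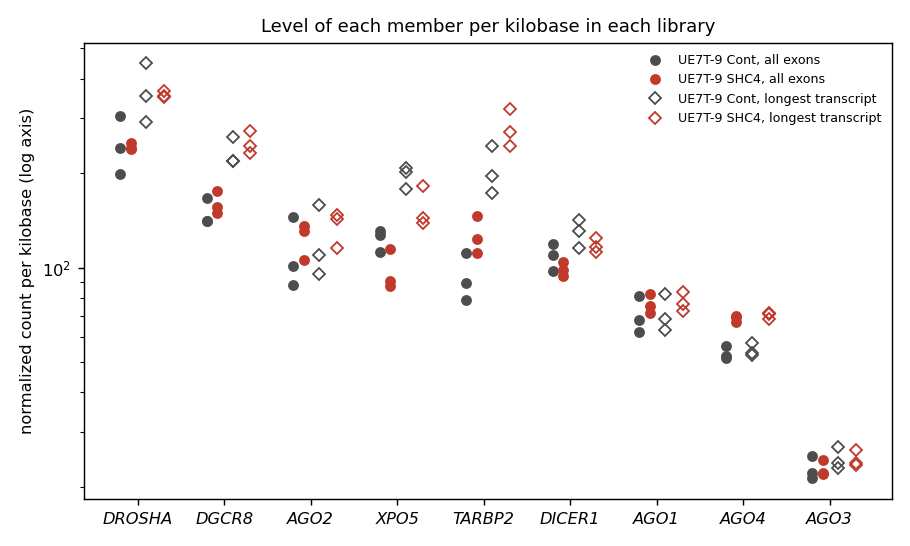
Normalized count per kilobase (logarithmic vertical axis) of each gene in every library, with filled circles for the length of all exons and open diamonds for the longest transcript. DROSHA is highest and AGO3 lowest with either length, and TARBP2 moves the most between the 2 lengths.

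Across the 6 libraries the 9 genes differed in how much they varied. The highest library was 1.17 times the lowest for AGO3, 1.25 times for DGCR8 and 1.26 times for DICER1, and 1.85 times for TARBP2, the widest. Among 11520 genes with a mean of at least 100, those whose log2 values were most like DICER1 over the 6 libraries included GTF3C4, a subunit of the RNA polymerase III factor TFIIIC (Pearson's r = 0.993), FAF1 (0.979), FAT4, an atypical cadherin (0.974), and GPAM, an enzyme of glycerolipid synthesis (0.972). Among the other members the value was highest for XPO5 (0.617) and lowest for AGO4 (-0.67). These are descriptions over 6 libraries that share 2 groups and the position of Cont replicate 1, and with so many genes high values can arise from few libraries.

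The wider pathway was taken as 6 lists, with the 9 members left out, of 80 genes in all, and 80 were tested. No gene of the 80 passed in limma in either direction, where 0.0651% of all genes tested were called. The median log2 fold change was -0.10, with 20 above and 60 below 0, beside a median of -0.00 over all genes tested. The groups did not overlap for 5 genes in the higher and 15 in the lower direction, where all genes tested gave 9.13% and 10.2%. At an unadjusted p below 0.05 in limma there were 2 higher and 5 lower, where 14.4% of all genes tested passed. DESeq2 called 2 of the 80, where it called 4.14% of all genes, and edgeR called 0. Without Cont replicate 1, limma called 4 of the 79 then tested (ADAR, ADARB1, PNPT1 and WTIP), where 5.68% of all genes were called. Scaling to library size moved the median of all genes to -0.10, and that of the 80 to -0.20.

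Among 16 cofactors of the nuclear cut, such as DDX5 and SRRT, 1 gene was above the controls and 3 below them in all libraries, where all genes tested gave 9.13% and 10.2%. ADARB1, which edits double-stranded RNA, had normalized counts of 1574, 937 and 487 across the Cont libraries and 2217, 2303 and 2414 across the SHC4 libraries. Its groups did not overlap, with a log2 fold change of 1.37 (limma, adjusted p = 0.170), and DESeq2 called it (adjusted p = 0.018). ADARB1 also passed without Cont replicate 1, its control nearest to the SHC4 libraries (limma, adjusted p = 0.0045), where 5.68% of all genes passed. ADAR, the other editing enzyme, was between 6374 and 12182 across the Cont libraries and between 6337 and 7365 across the SHC4 libraries. Its log2 fold change was -0.44 (limma, adjusted p = 0.420), and -0.72 without Cont replicate 1 (adjusted p = 0.027), the control that lay with the SHC4 libraries.

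The 4 genes of the RAN cycle that drives XPO5 all had estimates below 0, between -0.34 for RANBP1 (limma, adjusted p = 0.456) and -0.16 for RAN (adjusted p = 0.720), and all overlapped between the groups. When a library was left out, RANBP1 ran from -0.52 to -0.17 and RAN from -0.31 to -0.060, the first of each without SHC4 replicate 1. The 7 other genes around the DICER1 step had a median log2 fold change of 0.13, which ran from 0.022 without SHC4 replicate 1 to 0.19 without SHC4 replicate 2 and was 0.031 under scaling to library size and 0.061 over the 5 with a mean of at least 10. PRKRA, the paralog of TARBP2 that also binds DICER1, had 682, 626 and 556 across the Cont libraries and 722, 741 and 769 across the SHC4 libraries. Its groups did not overlap, with a log2 fold change of 0.26 (limma, adjusted p = 0.385). TUT7, which adds uridines to the hairpin, was lowest at -0.17 (adjusted p = 0.658), and between -0.30 and -0.068 when a library was left out. LIN28A and LIN28B, which block let-7 maturation, were near the floor, LIN28B between 1.95 and 8.15 normalized counts.

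The 11 chaperones and loading factors all had estimates below 0, with a median of -0.15. Of the 11, 10 were below 0 without SHC4 replicate 3. All 11 were below 0 under scaling to library size and under TMM scaling, another way to set size factors. Such scaling moves all genes nearly alike (median over all genes -0.10 and 0.0065), so these counts add little. FKBP5, a cochaperone of HSP90 that also answers to glucocorticoids, had 1098, 797 and 857 across the Cont libraries and 687, 527 and 469 across the SHC4 libraries. All SHC4 libraries were below the controls, with a log2 fold change of -0.71 (limma, adjusted p = 0.174) that DESeq2 called (adjusted p = 0.034). TSN, a subunit of the nuclease that removes the passenger strand, was the nearest to 0 at -0.04 (limma, adjusted p = 0.901).

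Of the 33 silencing effectors, including the TNRC6 scaffolds, the CCR4-NOT deadenylase and the decapping proteins, 9 had estimates above and 24 below 0, with a median of -0.05. WTIP, a LIM protein of processing bodies, had the highest at 0.72 (limma, adjusted p = 0.206; 0.0093 without Cont replicate 1), and MOV10, a helicase bound to Argonaute, the lowest at -0.34 (adjusted p = 0.316). The scaffolds TNRC6A, TNRC6B and TNRC6C had -0.10, -0.05 and -0.02. Among 9 genes of microRNA turnover, CUL3 was highest at 0.31 (limma, adjusted p = 0.362). PNPT1, an exonuclease, was lowest at -0.75 (limma, adjusted p = 0.325), and its first control (702) lay with the SHC4 libraries (690.0 to 873) while the other two stood at 1466 and 1951. Without that control its estimate was -1.18 (limma, adjusted p = 0.0061). ADAR and PNPT1 are also known as genes that interferon induces.

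**Figure D5:**
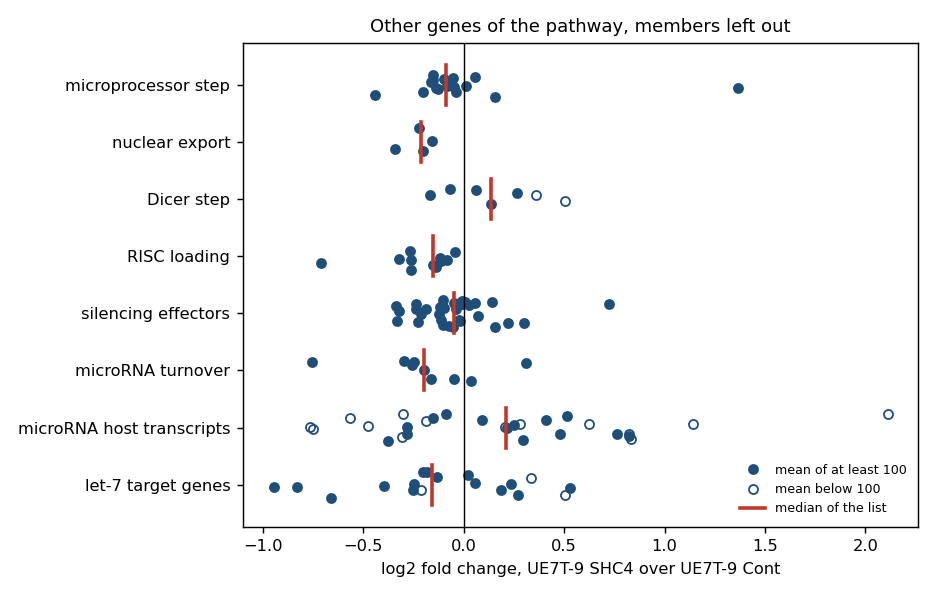
Log2 fold change of SHC4 over Cont libraries (horizontal axis) for each tested gene of 8 lists with the 9 members left out, with filled points for a mean of at least 100 and red bars for list medians. The RISC loading and nuclear export lists lie wholly below 0, and no point passed the limma test.

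Long transcripts that host microRNAs were measured as genes. Of 28 tested, none passed in limma (0.0651% of all genes), none with edgeR or DESeq2 (4.14%), and 5 had an unadjusted p below 0.05 in limma, where 14.4% of all genes tested passed. The median log2 fold change was 0.21, with 16 above and 12 below 0, but it was -0.011, with 13 above and 14 below 0, without SHC4 replicate 2. It was 0.030 without SHC4 replicate 1 and 0.079 without Cont replicate 1. CARMN, host of miR-143 and miR-145, had 215, 101 and 231 across the Cont libraries and 361, 397 and 194.5 across the SHC4 libraries, a log2 fold change of 0.82 with overlapping groups (limma, adjusted p = 0.336), which ran from 0.44 without Cont replicate 2 to 1.14 without SHC4 replicate 3. Among the 14 hosts with a mean of at least 100, MIR503HG was lowest at -0.38 (limma, adjusted p = 0.776). The lowest estimate of all 28 was -0.77. Without Cont replicate 1, limma called 2 of the 28 hosts, where 5.68% of all genes were called. These were DNM3OS, host of miR-199a and miR-214, and MIR100HG, host of let-7a-2, miR-100 and miR-125b. They are named for that after their values were seen. DNM3OS had 485, 279 and 390 across the Cont libraries and 541, 752 and 639 across the SHC4 libraries. MIR100HG had 2415, 1817 and 1622 across the Cont libraries and 2797, 2850 and 2427 across the SHC4 libraries. Both had no overlap, with log2 fold changes of 0.77 (limma, adjusted p = 0.189) and 0.48 (adjusted p = 0.242). Of the 28 hosts, 4 were higher and 1 lower without overlap, where all genes tested gave 9.13% and 10.2%. No mature sequence is shown because no host transcript passed with all libraries.

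The let-7 target genes are messages known to be silenced by the let-7 family, so they report on targets and not on the machinery. Of 18 tested, none passed in limma or edgeR and DESeq2 called 3, where it called 4.14% of all genes. At an unadjusted p below 0.05 in limma there were 1 higher and 4 lower, where 14.4% of all genes tested passed in either direction. The groups did not overlap for 1 in the higher and 6 in the lower direction, where all genes tested gave 9.13% and 10.2%. The median log2 fold change was -0.16, and -0.03 without Cont replicate 1. When a library was left out it ran from -0.27 without SHC4 replicate 1 to -0.0079 without SHC4 replicate 3. IGF2BP3, an RNA-binding protein, had 614, 745 and 1339 across the Cont libraries and 472, 399.5 and 453 across the SHC4 libraries. Its log2 fold change of -0.95 (limma, adjusted p = 0.184) passed with DESeq2 (adjusted p = 0.016). IGF1R, a receptor tyrosine kinase, had 1577, 1476 and 1214 across the Cont libraries and 1876, 2181 and 2075 across the SHC4 libraries. Its log2 fold change of 0.53 (limma, adjusted p = 0.180) also passed with DESeq2 (adjusted p = 0.043). CDK6, a cell cycle kinase, was the third gene that DESeq2 called in this list (adjusted p = 0.019), with a limma log2 fold change of -0.66 (adjusted p = 0.155). Of the 3, IGF1R was higher and the other two lower across the SHC4 libraries, while HMGA2 (0.23) and MYC (-0.13) had smaller estimates that did not pass. PIWIL2 and PIWIL4, of the germline clade related to Argonautes, were at most 19.7 and 70.6 normalized counts.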

How the data were processed

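RNA from the 3 samples of each group was extracted with a column kit, made into libraries with a kit that does not mark strand, and sequenced on an Illumina NovaSeq. Samples were grouped by title and genotype in the labels. The submitters' processing notes name HISAT2 2.0.5, featureCounts 1.5.0-p3 and DESeq2, and the genome build and annotation are not given in the sources used here. For each gene, the values as deposited by the authors are a signal, in which every library's reads were divided by a single size factor (normalized counts below). Rows carry Ensembl identifiers, and positions and symbols were taken from GENCODE 29 on GRCh38, where all 28181 identifiers matched. All values (100%, tolerance 0.01 reads) came out as whole reads, so reads were recovered for count tests.

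limma 3.58.1 in R 4.3.3 (eBayes with trend) was fitted on log2(value + 1), which understates the change of low genes, for 23040 genes with a mean of at least 1, leaving out 5141. Benjamini-Hochberg adjustment ran over all of them, and an adjusted p below 0.05 was a call, with no fold threshold. Alternatives were edgeR 4.0.16 (quasi-likelihood), DESeq2 1.42.0, limma-voom, TMM and library size scaling, other filters and pseudocount, a replicate block and leaving out each library. Levels per kilobase, Argonaute shares and likeness to DICER1 have no test. Exon lengths and 25-base stretches shared with other genes (either strand) were taken from GENCODE 29 transcripts. Fits were tested on simulated counts first.

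The members and lists were chosen with earlier results of these data known. Genes named are the 9 members, SHC4, SBDS, genes that overlap a member, the highest and lowest estimate in each list among genes with a mean of at least 100, and the 5 genes most like DICER1, except items that are not reported here. C5orf22, POLH, DNM3OS, MIR100HG and CDK6 were named after their values were seen. Cell type markers and some other list genes, such as TNRC6A, HMGA2 and MYC, are also named outside these rules. The list genes PIWIL1, PIWIL3, MYCN, FASLG, H19 and 8 other microRNA hosts were not analysed here. No pair of libraries was a duplicate (mean chi-square per gene between 13.1 and 145, where sampling noise gives about 1).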

Additional observations from a re-analysis of the deposited data

How the results depend on the processing

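None of the 9 members was called in any of the 15 alternative fits (135 fits of a member, lowest adjusted p 0.067), and 8 of those fits turned the sign. DROSHA turned to 0.0012 on the log2 scale under TMM scaling and ranged from -0.16 to 0.15 when a library was left out. DGCR8 turned to -0.00018 under library size scaling, and AGO3 to -0.10 under library size scaling and ranged from -0.045 to 0.069 when a library was left out. These estimates lie near 0. Genes called numbered 669 with DESeq2, 25 with TMM scaling, 24 with library size scaling, 9 with limma-voom, 43 without a filter, 47 with the replicate block, and from 2 to 1311 when a library was left out (1311 without Cont replicate 1, 67 without SHC4 replicate 1, 2 without SHC4 replicate 2 or 3, 6 without Cont replicate 2), against 15. Pathway genes called numbered 2 with DESeq2 and from 0 to 4 when a library was left out, microRNA hosts from 0 to 2, and let-7 targets 3 with DESeq2 and from 0 to 3, each against 0, with the highest count always without Cont replicate 1. Leaving out a library also turned MIR503HG (-0.88 to 0.039), POLR1C (-0.028 to 0.17, and -0.0086 with library size scaling), SBDS (-0.17 to 0.066), TRMT2A (-0.10 to 0.030) and TSN (-0.12 to 0.010). The cause was not tested. With the longest transcript as length, levels per kilobase moved by construction. They were then 360 for DROSHA, 241 for DGCR8, 175 for XPO5, 123 for DICER1, 241 for TARBP2 and 24.5 for AGO3. No Argonaute share moved by more than its spread. The 2 lengths of each Argonaute gene are close (for AGO3, 21157 and 19687 bases), so the shares could hardly move.

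The same replicate numbers did not pair the libraries by the rule set, since correlations of deviations from the group means were 0.15, 0.01 and -0.01 over the genes tested. Over genes with a mean of at least 50, a choice made after seeing the data, they were 0.41, 0.15 and 0.15, yet Cont replicate 2 correlated more with SHC4 replicate 3 (0.52). The replicate block changed no call of a member. With 3 libraries per group, an exact permutation test of a single gene could not go below p = 0.1.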

Other observations

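The files list 218 loci annotated as microRNA hairpins, which the comparisons above do not use. Of these, 99 had a mean of at least 1 and 13 a mean of at least 10, and the highest mean was 52.8 normalized counts (MIR1244-2). None passed in limma (lowest adjusted p = 0.25), edgeR or DESeq2. In limma 6 had an unadjusted p below 0.05, where 14.4% of all genes tested passed, and the groups did not overlap for 9 of the 99, where 19.3% of all genes tested did not. The source of these reads was not traced, and they are not read as levels of mature microRNAs. MIR1244-2 had 69.2, 36.5 and 44.3 across the Cont libraries and 47.5, 51.6 and 67.5 across the SHC4 libraries, with overlap.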
